A study of Mus musculus with 6 samples.

Results

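The 10 genes described here encode transcription factors that drive or oppose the follicular helper T (Tfh) cell program, namely *Bcl6*, *Tcf7*, *Lef1*, *Tox*, *Tox2*, *Batf*, *Irf4*, *Maf*, *Pou2af1* and *Bach2*. They were chosen by name from what is known of their roles, and all 10 were found among the 53379 genes listed in each library. Tfh cells were sorted from the spleens of female mice 7 days after NP-CGG in CFA was given, and RNA-seq was performed with 1 Smart-seq2 library per mouse. The gate was live TCRβ+CD4+CXCR5+PD1+, and cells were not selected on FOXP3. The *Prdm1*-CKO group held 3 mice (*Prdm1* fl/fl with CD11c-Cre), in which BLIMP-1 is deleted in CD11c-high dendritic cells, and the control (CTL) group held 3 mice. CTL mice were either *Prdm1* fl/fl without the Cre or *Prdm1* wild type with the Cre, a choice not given for single mice. All mice were age matched, and the study immunized its mice at 6 to 8 weeks of age. The sample titles call the second group KO, whereas its genotype field says KD. The Cre is not directed at T cells, so the *Prdm1* transcript of Tfh cells does not check the labels.

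Tfh cells help B cells in the germinal center, and BCL6 is the repressor that sets their fate. It represses *Prdm1*, whose product BLIMP-1 represses *Bcl6* in turn. TCF-1, LEF-1, TOX and TOX2 carry an HMG box that binds and bends DNA and act early in the program. BATF and IRF4 bind joint AP-1 and IRF sites after T cell receptor stimulation, c-MAF drives *Il21*, the coactivator encoded by *Pou2af1* works with octamer factors, and BACH2 restrains effector differentiation.

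Total counts were between 7147601 and 14177558 in CTL mice and between 9753574 and 16973392 in *Prdm1*-CKO mice. CTL replicate 2 stood apart from the other 5 mice on the first principal component of log2 CPM, which held 56.4% of the variance, and values without it are given wherever they turn the direction of one of the 10 factors. T cell markers were strongly expressed in every library, with a summed level of 8 genes between 5495 and 6450 CPM in CTL and between 5267 and 5689 CPM in *Prdm1*-CKO mice, where CPM is the count scaled to the TMM-adjusted library size. Of these 8, 2 were lower at an unadjusted p under 0.05, beside 1.42% of all genes tested, and 0 at an adjusted p (edgeR). *Cd4* and *Cd28* lay below every CTL mouse in each *Prdm1*-CKO mouse (2 of 8 not overlapping, beside 8.42% of all genes, 3.86% as lower). The 12 B cell markers summed to between 107 and 188 CPM in CTL and between 161 and 251 CPM in *Prdm1*-CKO mice. Of these 12, 11 had a log2 fold change above 0 and 0 had an unadjusted p under 0.05 (edgeR). The groups did not overlap for 3, *Cd79b*, *Pax5* and *Cr2*, each higher in *Prdm1*-CKO mice (8.42% of all genes, 4.56% as higher). The 6 plasma cell markers summed to between 407 and 648 CPM in CTL and between 654 and 875 CPM in *Prdm1*-CKO mice, and the 10 macrophage markers to between 549.5 and 1563 CPM and between 1141 and 1577 CPM. Log2 fold changes were above 0 for 6 of 6 plasma cell and 10 of 10 macrophage markers, beside 51.1% of all genes. In each of these lists 1 marker was higher at an unadjusted p under 0.05 (0.928% of all genes), and 2 plasma cell and 1 macrophage markers did not overlap (8.42%). The CD8 and NK cell markers summed to between 230.5 and 312 CPM in CTL and between 189 and 228 CPM in *Prdm1*-CKO mice. Of these 7, 2 were lower at an unadjusted p under 0.05 (1.42% of all genes tested) and 4 did not overlap (8.42%). Of the 4, *Cd8b1* lay above every CTL mouse and the others below. Erythroid markers were between 6.40 and 17.6 CPM in CTL and between 11.7 and 46.9 CPM in *Prdm1*-CKO mice, with 3 of 4 tested higher at an unadjusted p under 0.05 (0.928% of all genes). Of 5 basophil and mast cell markers, 2 were lower at that threshold (1.42% of all genes), with sums of 27.1 to 82.3 CPM against 31.2 to 41.2 CPM. No gene of these marker lists reached an adjusted p under 0.05 in edgeR's test, and their part in the values of the 10 factors was not tested, except for the B cell markers described with *Pou2af1*. No marker of the B cell, plasma cell or macrophage lists was at 0 counts in all mice. CTL replicate 2 had the fewest genes with a count (16650). It was at 0 CPM for *Pax5*, *Ebf1*, *Blnk*, *Fcer2a* and *Fcrla* of the B cell list and for *Sdc1* and *Tnfrsf17* of the plasma cell list. *Foxp3* was present at 173, 176 and 171 CPM in CTL and 182, 134 and 155 CPM in *Prdm1*-CKO mice. The 6 regulatory T cell markers, *Foxp3* among them, summed to between 731 and 828 CPM in CTL and between 650 and 721 CPM in *Prdm1*-CKO mice. Of the 6, 1 had a log2 fold change above 0 (51.1% of all genes). For single markers, 0 had groups that did not overlap (8.42%) and 0 had an unadjusted p under 0.05 (edgeR). Their part in the values of the 10 factors was not tested.

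The level of the 10 factors in CTL Tfh cells spanned 60.0-fold, from *Tcf7* at the top to *Bach2* at the bottom. Levels between genes were compared as CPM per kb of annotated exon. *Tcf7*, which encodes TCF-1, was at 219 ± 27.4 CPM per kb (SD, n = 3) and *Batf* at 114 ± 8.75 CPM per kb (SD, n = 3), at percentiles of 98.9 and 97.5 among the 14540 tested genes with a known length. *Tox* followed at 28.3 ± 5.39 and *Lef1* at 27.4 ± 3.88 CPM per kb (SD, n = 3). *Pou2af1* at 21.9 ± 5.85, *Tox2* at 21.4 ± 11.4, *Irf4* at 15.6 ± 2.95, *Bcl6* at 14.1 ± 4.35 and *Maf* at 12.6 ± 3.31 CPM per kb (SD, n = 3) made up the middle of the order. *Bach2*, the opponent of the program, was lowest at 3.64 ± 0.881 CPM per kb (SD, n = 3). The gene for the master regulator of the Tfh fate stood at rank 8 of 10 in transcript level, at a median percentile of 72.2, whereas *Bach2* stood at 41.3.

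Only 3 of the 9 steps in this order had CTL ranges that did not overlap. *Tcf7* exceeded *Batf* by 1.91-fold, *Batf* exceeded *Tox* by 4.07-fold and *Maf* exceeded *Bach2* by 3.45-fold, each as a geometric mean over the CTL mice, and each of these steps kept its direction in 6 of 6 mice. The 7 genes from *Tox* to *Maf* did not differ from their neighbours beyond the spread between CTL mice. *Tox* was above *Lef1* in 1 of 3 CTL mice and in 2 of 6 mice, and *Bcl6* was above *Maf* in 2 of 3 CTL and 5 of 6 mice. In *Prdm1*-CKO mice the span was 64.4-fold, *Tcf7* and *Batf* again led the order and *Bach2* ended it, and *Pou2af1* stood at rank 7 instead of 5. The order in the middle also depended on gene length. With the longest annotated transcript in place of all exons, *Bcl6* moved from rank 8 to 6 in CTL mice, *Irf4* from 7 to 9 and *Pou2af1* from 5 to 7.

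**Figure D1:**
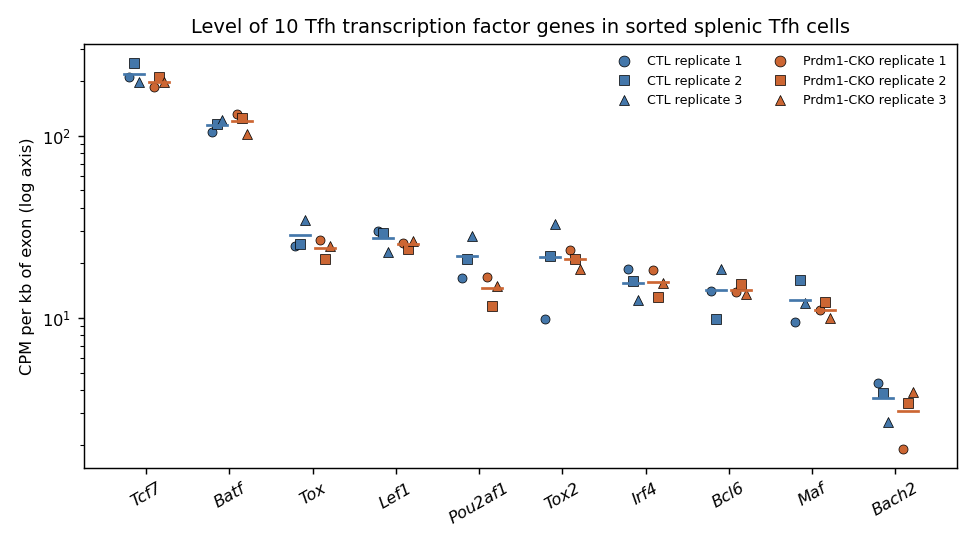
Level of each factor gene in CPM per kb of exon (log axis) in each of the 6 mice, ordered by the CTL mean, with blue for CTL and orange for *Prdm1*-CKO, marker shape for the replicate and bars for group means. *Tcf7* and *Batf* lie above 100 CPM per kb in every mouse, *Bach2* lies under 5, and the 7 genes between them interleave.

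In the comparison of *Prdm1*-CKO with CTL Tfh cells, which asks whether deletion of BLIMP-1 in dendritic cells was followed by a change in the Tfh program, 0 of the 10 factors reached an adjusted p under 0.05 in edgeR's quasi-likelihood test, against 0 of the 14555 genes tested (0%) and a smallest adjusted p of 0.996. At an unadjusted p under 0.05 the factor *Pou2af1* was lower in *Prdm1*-CKO mice, so 1 of 10 factors passed, beside 2.35% of all genes tested (0.928% higher and 1.42% lower). DESeq2's Wald test, run as an alternative over 26030 genes, called 7 higher genes and 2 lower ones after adjustment, none of them a factor, and 264 and 417 at an unadjusted p under 0.05. None of the 10 factors had groups that did not overlap, a pattern found in 8.42% of all genes (4.56% with *Prdm1*-CKO higher and 3.86% with it lower). Log2 fold changes of the 10 factors were between -0.59 and 0.07, with 7 below 0 and a median of -0.13, and the median over all genes tested was 0.01. All 10 factors passed the expression filter, with 179 to 8592 counts in every mouse, so no factor entered the test through a single group.

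The 95% intervals of the fold changes bound what these 6 mice allow. For 9 of 10 factors the interval lay within a change of 2-fold in either direction, and *Pou2af1* was the exception, with a lower bound of 0.443-fold. For 5 of the 10 the interval lay within 1.5-fold. *Tcf7* had an interval from 0.722-fold to 1.13-fold, and *Tox2* from 0.543-fold to 1.79-fold. The counting error, taken as if reads were independent molecules, was at most 7.47% for each factor in any library, and the coefficient of variation among CTL mice ran from 7.66% to 53.0%.

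**Figure D2:**
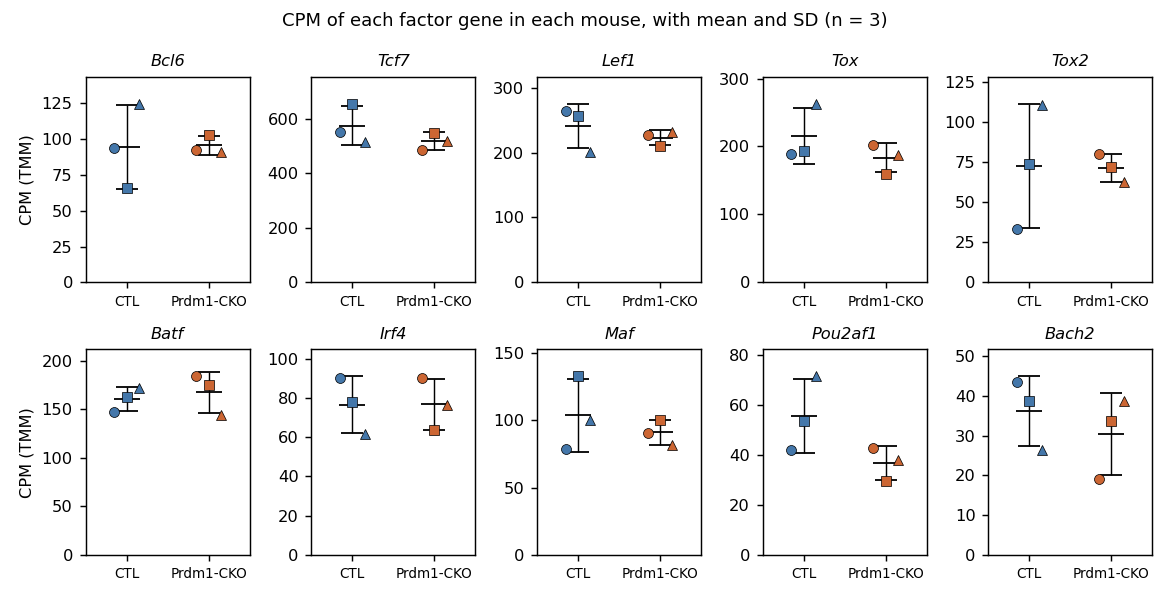
CPM with TMM scaling of each factor gene in 3 CTL (blue) and 3 *Prdm1*-CKO (orange) mice, with circles, squares and triangles for replicates 1, 2 and 3 and black bars for the mean and SD (n = 3). In all 10 genes the 2 groups overlap, and for *Bcl6*, *Lef1*, *Tox2*, *Irf4* and *Maf* all *Prdm1*-CKO mice lie between the lowest and the highest CTL mouse.

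*Bcl6*, which spans 23965052 to 23988852 of chromosome 16 (GRCm38, used for all positions here), was at 93.4, 66.0 and 124 CPM in CTL replicates 1 to 3 and at 92.4, 103 and 90.9 CPM in *Prdm1*-CKO replicates 1 to 3. All *Prdm1*-CKO mice lay within the CTL range, and the extremes of that range were CTL replicates 2 and 3. The log2 fold change was 0.01 (standard error, SE, 0.23, edgeR adjusted p = 0.998), with a 95% interval from -0.52 to 0.55. It ran from -0.20 without CTL replicate 2 to 0.26 without CTL replicate 3, and leaving out CTL replicate 1 (-0.014) or *Prdm1*-CKO replicate 2 (-0.035) also put it below 0.

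*Prdm1*, the gene that opposes *Bcl6*, was at 28.9, 29.97 and 27.5 CPM in CTL and 30.2, 30.8 and 30.9 CPM in *Prdm1*-CKO Tfh cells. Its groups did not overlap, a pattern found in 8.42% of all genes (4.56% with *Prdm1*-CKO higher). The log2 fold change was 0.09 (SE 0.19, edgeR adjusted p = 0.996). The exact permutation p was 0.1, the smallest that 3 mice against 3 can give. The summed plasma cell markers were between 407 and 648 CPM in CTL and between 654 and 875 CPM in *Prdm1*-CKO mice. Their part in the *Prdm1* values and in the ratio below was not tested. The transcript ratio of *Bcl6* to *Prdm1*, per length and within each library, was 2.69, 1.83 and 3.76 in CTL and 2.55, 2.78 and 2.45 in *Prdm1*-CKO mice. *Bcl6* therefore exceeded its antagonist in all 6 mice. The mean log2 ratio was 1.404 ± 0.52 (SD, n = 3) in CTL and 1.37 ± 0.09 (SD, n = 3) in *Prdm1*-CKO mice, a difference of -0.03 that did not pass the test (two-sided exact permutation p = 0.9, adjusted p = 1 over the 3 ratios tested).

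Among the HMG box factors, the 2 members of the TCF family had lower means in *Prdm1*-CKO Tfh cells without passing the test. *Tcf7*, on chromosome 11 from 52252371 to 52283014, was at 552, 654 and 515 CPM in CTL and 484, 549 and 519 CPM in *Prdm1*-CKO mice. The groups overlapped, with *Prdm1*-CKO replicate 1 below every CTL mouse, and the log2 fold change was -0.15 (SE 0.14, edgeR adjusted p = 0.996). *Lef1*, on chromosome 3 from 131110471 to 131224356, was at 264, 256 and 202 CPM in CTL and 226, 211 and 232 CPM in *Prdm1*-CKO mice, for a log2 fold change of -0.11 (SE 0.15, edgeR adjusted p = 0.996). For both genes every *Prdm1*-CKO mouse lay below the geometric mean of the CTL mice, and the direction was kept with each mouse left out, between -0.21 and -0.05 for *Tcf7* and between -0.22 and -0.05 for *Lef1*. Leaving out CTL replicate 2, which had the highest *Tcf7*, put its log2 fold change at -0.05. The ratio of *Tcf7* to *Lef1* per length was 6.998, 8.55 and 8.56 in CTL and 7.17, 8.73 and 7.49 in *Prdm1*-CKO mice, so *Tcf7* exceeded its paralog in every mouse (two-sided exact permutation p = 1 between the groups). The SD of the log2 ratio was 0.17 in CTL and 0.15 in *Prdm1*-CKO mice (n = 3 each).

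In the TOX family pair the coefficient of variation was 19.0% for *Tox* and 53.0% for *Tox2* among CTL mice, and 11.8% and 12.02% among *Prdm1*-CKO mice. *Tox*, on chromosome 4 from 6686353 to 6991557, was at 189, 194 and 263 CPM in CTL and 203, 160.1 and 188 CPM in *Prdm1*-CKO mice. *Prdm1*-CKO replicates 2 and 3 were below every CTL mouse, replicate 3 by a small margin, and the log2 fold change was -0.23 (SE 0.18, edgeR adjusted p = 0.996). CTL replicate 3 was the highest of the 6, and without it the log2 fold change was -0.05.

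*Tox2*, on chromosome 2 from 163203125 to 163324170, was at 33.6, 74.2 and 111 CPM in CTL and 80.1, 71.9 and 62.9 CPM in *Prdm1*-CKO mice. Its CTL mice spanned 3.30-fold, the widest range of the 10 factors within either group, and the *Prdm1*-CKO mice spanned 1.27-fold within it. The log2 fold change was -0.02 (SE 0.38, edgeR adjusted p = 0.998), and it was -0.39 without CTL replicate 1 and 0.43 without CTL replicate 3. Per length, *Tox* exceeded *Tox2* by 2.52-fold, 1.17-fold and 1.06-fold in CTL mice, and the ratio was 1.13, 0.996 and 1.34 in *Prdm1*-CKO mice (two-sided exact permutation p = 0.6, adjusted p = 1). With all exons as the length, CTL replicate 1 was alone in holding clearly more *Tox* than *Tox2*. With the longest transcript as the length, the CTL means were 54.4 CPM per kb for *Tox* and 24.7 for *Tox2*. Which mice held more *Tox* than *Tox2* therefore depended on the length used.

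The promoters of the factors were searched for the short sites that the factors themselves are known to bind. RefSeq on GRCm38.p6 gave 17 starts for 8 of the 10 genes, and the 250 bases before each start were read on both strands. *Tox2* had 5 of these starts, and *Tox* and *Maf* had 0. The only *Bach2* window, 32417185 to 32417434 of chromosome 4, lay inside the gene, so the stretch before its first annotated base (32238804) was not searched. *Tox2* was the only gene with a match, to the TCF and LEF site CTTTGAT, in 2 starts that lie 1 base apart and share the site. Of all 32851 promoters, 3.21% hold that site. It lies 140 to 134 bases before a *Tox2* start that is 22328 bp past the first base of the gene. The part of this promoter that precedes annotated exons, 160 bases on the plus strand of GRCm38.p6, chr2:163225203-163225362, is shown because it holds the one match, with the site in capitals as its reverse complement.
Tox2: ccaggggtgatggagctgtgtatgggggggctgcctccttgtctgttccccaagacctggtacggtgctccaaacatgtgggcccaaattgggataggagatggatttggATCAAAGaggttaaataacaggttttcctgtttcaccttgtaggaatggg
None of the 17 windows searched held the second form of the TCF and LEF site CTTTGTT (5.03% of all promoters) or the octamer ATTTGCAT (1.6%). The AP-1 site TGANTCA (6.75%), the interferon response element (2.98%) and the Bcl6 site TTCCNAGAA (1.92%) were also absent from them. So was the Maf site with an AP-1 core (0.353%), which contains the AP-1 site. These matches are letters in a window and were not measured as binding.

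*Batf* and *Irf4*, whose products bind DNA together, were among the 4 factors with the smallest fold changes, with *Bcl6* and *Tox2*. *Batf*, on chromosome 12 from 85686669 to 85709087, was at 147, 163 and 172 CPM in CTL and 184, 175 and 144 CPM in *Prdm1*-CKO mice. *Prdm1*-CKO replicates 1 and 2 lay above every CTL mouse and replicate 3 below, and the log2 fold change was 0.07 (SE 0.16, edgeR adjusted p = 0.996). *Batf* varied least of the factors among CTL mice, with a coefficient of variation of 7.66%, and its log2 fold change was -0.0067 when CTL replicate 1 was left out and -0.00062 when *Prdm1*-CKO replicate 1 was. *Irf4*, on chromosome 13 from 30749226 to 30766976, was at 90.2, 77.9 and 61.4 CPM in CTL and 89.9, 63.7 and 76.4 CPM in *Prdm1*-CKO mice. The groups covered nearly the same range, with a log2 fold change of 0.0018 (SE 0.21, edgeR adjusted p = 0.999) and an interval from -0.48 to 0.48. It was -0.13 without CTL replicate 3, -0.12 without *Prdm1*-CKO replicate 1 and -0.0021 with the DESeq2 size factors.

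*Maf*, which encodes the activator of *Il21*, lies on chromosome 8 from 115682942 to 115707794. It was at 78.6, 133 and 99.9 CPM in CTL and 90.7, 100.4 and 81.9 CPM in *Prdm1*-CKO mice. CTL replicate 2 was the highest of the 6, and all *Prdm1*-CKO mice were within the CTL range. The log2 fold change was -0.19 (SE 0.21, edgeR adjusted p = 0.996), and without CTL replicate 2 it was 0.02. Its target *Il21* was at 14.5, 24.5 and 24.9 CPM in CTL and 41.8, 14.3 and 10.4 CPM in *Prdm1*-CKO mice, so *Prdm1*-CKO replicate 1 was the highest and the other 2 were below every CTL mouse (log2 fold change 0.07, SE 0.51, edgeR adjusted p = 0.998).

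*Pou2af1* had the largest difference of the 10 factors. It lies on chromosome 9 from 51213708 to 51240080, encodes the octamer coactivator that B cells share with Tfh cells, and was at 42.0, 53.8 and 71.6 CPM in CTL and 42.9, 29.6 and 38.2 CPM in *Prdm1*-CKO mice. *Prdm1*-CKO replicates 2 and 3 were below every CTL mouse, whereas replicate 1 lay just above CTL replicate 1. The mean was 55.8 ± 14.9 CPM (SD, n = 3) in CTL and 36.9 ± 6.74 CPM (SD, n = 3) in *Prdm1*-CKO mice, for a log2 fold change of -0.59 (SE 0.25) or 0.663-fold. The unadjusted p was 0.0467 and the adjusted p 0.996 in edgeR's quasi-likelihood test, 306 genes had a smaller p, and the two-sided exact permutation test gave p = 0.2. The value stayed below 0 in all 12 alternatives tried, and its unadjusted p was under 0.05 in 6 of them. Without CTL replicate 3 the log2 fold change was -0.36 (unadjusted p = 0.171 from edgeR), and without *Prdm1*-CKO replicate 2 it was -0.45 (unadjusted p = 0.153 from edgeR).

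B cells also express *Pou2af1*, *Bcl6*, *Irf4* and *Bach2*, so each was set beside the mean log2 level of the 12 B cell markers over the 6 mice. The summed B cell markers were at 188, 107 and 128 CPM in CTL and 251, 161 and 224 CPM in *Prdm1*-CKO mice. For *Pou2af1* the relation was negative, with Pearson's r = -0.51 (exact permutation p = 0.317) and Spearman's rho = -0.43 (exact permutation p = 0.419), and leaving out the mice farthest from the median, CTL replicate 2 and *Prdm1*-CKO replicate 1, gave r = -0.62. The part of B cell RNA in the values of these genes was not tested further. For *Bcl6*, *Irf4* and *Bach2*, r was 0.41 (exact permutation p = 0.428), 0.36 (exact permutation p = 0.508) and -0.30 (exact permutation p = 0.619). Spearman's rho was -0.09 (exact permutation p = 0.919), 0.43 (exact permutation p = 0.419) and -0.09 (exact permutation p = 0.919) in the same order. Without the same 2 mice r turned to -0.96 for *Bcl6* and to 0.86 for *Bach2*, and was 0.71 for *Irf4*, so the directions for *Bcl6* and *Bach2* rest on those mice. None of the 4 relations passed, with an adjusted p of 0.619 for each r, and 6 mice that include both groups are too few to give the relation within a group. In bulk samples fewer cells of a type and less RNA per cell cannot be told apart.

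*Bach2*, the opponent of effector programs, had the lowest level and the fewest counts. It lies on chromosome 4 from 32238804 to 32586108 and was at 43.5, 38.6 and 26.5 CPM in CTL and 19.0, 33.7 and 38.7 CPM in *Prdm1*-CKO mice. *Prdm1*-CKO replicate 1, with the deepest library, was the lowest of the 6, at 337 counts. The log2 fold change was -0.25 (SE 0.32, edgeR adjusted p = 0.996), and without that mouse it was 0.0042, so the lower mean rests on *Prdm1*-CKO replicate 1.

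**Figure D3:**
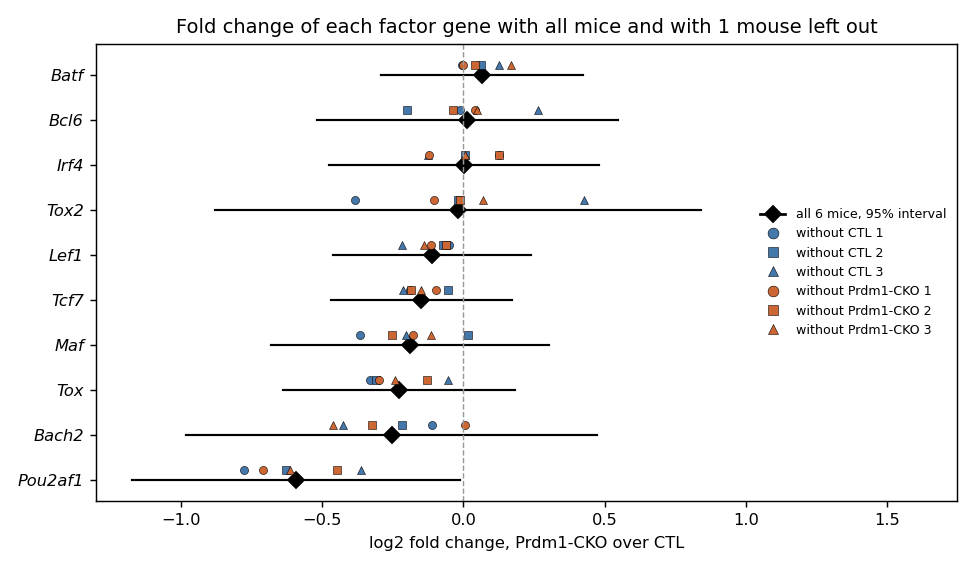
Log2 fold change of each factor gene, *Prdm1*-CKO over CTL, from edgeR with all 6 mice (black diamonds, lines for the 95% interval) and with 1 mouse left out (coloured markers). Intervals of 9 genes span 0, that of *Pou2af1* ends at -0.01, and 6 genes change sign when some mouse is left out.

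The spread between mice was larger in the CTL group than in the *Prdm1*-CKO group for 8 of the 10 factors. The coefficient of variation ran from 7.66% to 53.0% with a median of 21.6% among CTL mice, and from 4.95% to 33.6% with a median of 11.9% among *Prdm1*-CKO mice. The exceptions were *Batf* and *Bach2*. The factors shared this with the rest of the transcriptome, since among 7546 genes with a mean of at least 20 CPM the medians were 21.4% in CTL and 11.97% in *Prdm1*-CKO mice, and the CTL value was the larger in 76.7%. Of the 20 lowest and highest values of the 10 factors, 14 were in CTL mice, 5 of them in replicate 1, 3 in replicate 2 and 6 in replicate 3.

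Reads that could belong to another gene were few for most of the factors. The exons of *Lef1*, *Tox*, *Maf* and *Bach2* overlap an antisense gene over 13.7%, 3.42%, 5.34% and 5.40% of their length, and those of *Bcl6* a coding gene over 0.313%. The overlapping genes held at most 3.07% of the counts of their partner in any mouse, the highest being *Bach2os* beside *Bach2*. Strand was not stated for the counting, so reads in the shared stretches cannot be assigned. Of all windows of 25 bases in their transcripts, the length of a read, 15.3% were shared with another gene for *Lef1* and between 0% and 6.67% for the other factors. *Tcf7*, *Batf* and *Irf4* shared none.

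Other genes of the program were taken from lists drawn up by role, and none of their genes reached an adjusted p under 0.05. Of 20 surface and cytokine genes of Tfh cells 19 were tested, 8 had a log2 fold change above 0 and 11 below, the median was -0.07 (0.15 with CTL replicate 3 left out and 0.023 with *Prdm1*-CKO replicate 3 left out), and 0 had an unadjusted p under 0.05. The most abundant were *Slamf6*, a SLAM family receptor, *Izumo1r*, a folate receptor family gene of Tfh and regulatory T cells, and *Cxcr5*, the follicular homing receptor used in the gate. *Slamf6* was at 784, 818 and 831 CPM in CTL and 680, 704 and 714 CPM in *Prdm1*-CKO mice, the only gene of the 19 whose groups did not overlap (8.42% of all genes, 3.86% as lower), with a log2 fold change of -0.21 (SE 0.11, edgeR adjusted p = 0.996). *Izumo1r* had a log2 fold change of -0.14 (SE 0.15) and *Cxcr5* of -0.13 (SE 0.24). *Gng4* had 0 counts in all 6 mice.

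Of 16 factors that oppose the Tfh fate, all were tested, 6 were above 0 and 10 below, with a median of -0.08 and 0 at an unadjusted p under 0.05. *Foxp1*, which restrains Tfh differentiation, had the highest mean level of these at 229.8 CPM (log2 fold change -0.26, SE 0.16). *Gata3*, the Th2 factor, was at 205, 256 and 266 CPM in CTL and 183, 203 and 190 CPM in *Prdm1*-CKO mice, all below the CTL mice, with a log2 fold change of -0.34 (SE 0.15, edgeR adjusted p = 0.996). In this list 1 gene did not overlap as lower, *Gata3* (3.86% of all genes), and 1 as higher, *Prdm1* (4.56%). *Id2*, which blocks E proteins, had a log2 fold change of -0.10 (SE 0.17). Another list of 20 factors was drawn up as promoters of the Tfh fate, though not all of its genes act that way. Its median was -0.03 (-0.05 to 0.03 with each mouse left out), with 9 above 0, 11 below and 0 at an unadjusted p under 0.05. The most abundant genes of this list were *Ikzf1*, *Stat3* and *Nfatc1*, at log2 fold changes of -0.13 (SE 0.35), -0.16 (SE 0.17) and 0.06 (SE 0.21), and *Ikzf1* was at 0.16 without CTL replicate 2.

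The AP-1 and IRF partners of *Batf* and *Irf4* had a median of 0.11, with 14 of 15 tested, 9 above 0 and 5 below. This median was -0.09 without CTL replicate 2 and 0.64 without CTL replicate 1. *Spi1*, an ETS factor of myeloid and B cells, was the only gene of these lists besides *Pou2af1* with an unadjusted p under 0.05. It was at 42.7, 64.6 and 146 CPM in CTL and 177, 162 and 161 CPM in *Prdm1*-CKO mice, for a log2 fold change of 0.99 (SE 0.40, unadjusted p = 0.0368 and adjusted p = 0.996 from edgeR). The 10 macrophage markers summed to 1563, 549.5 and 855 CPM in the same CTL mice and to 1388, 1141 and 1577 CPM in the *Prdm1*-CKO mice, and their part in the difference was not tested. *Batf3* and *Spib* also lay above every CTL mouse in each *Prdm1*-CKO mouse, so 3 of 14 did not overlap in this direction, beside 4.56% of all genes. *Spib*, a factor of B cells and plasmacytoid dendritic cells, had 0 counts in CTL replicate 2. In the same comparison 11 of the 12 B cell markers were above 0, beside 51.1% of all genes. Their part in the *Spib* difference was not tested. Paralogs of the 10 factors had a median of 0.08 over 12 tested of 16 (-0.07 without CTL replicate 2 and 0.28 without CTL replicate 1), with 7 above 0 and 5 below, and *Tox3* had 0 counts in all mice. Co-repressor genes that act with *Bcl6* had a median of -0.09 over 16 tested, with 6 above 0 and 10 below. The most abundant paralogs were *Irf9*, *Irf3* and *Irf5*, at log2 fold changes of -0.08 (SE 0.15), -0.07 (SE 0.17) and 0.35 (SE 0.24), and the most abundant co-repressor genes *Ncor1*, *Tbl1x* and *Hdac3*, at -0.28 (SE 0.23), 0.06 (SE 0.20) and 0.03 (SE 0.16). *Tbl1x* was at -0.12 without CTL replicate 2. Neither list had a gene at an unadjusted p under 0.05.

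**Figure D4:**
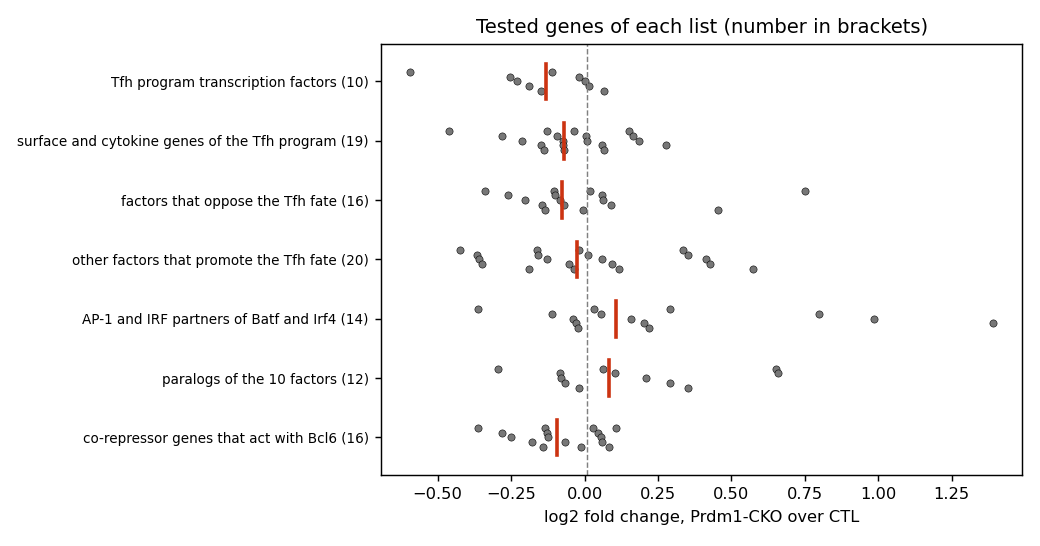
Log2 fold change, *Prdm1*-CKO over CTL, of every tested gene of the 10 factors and of 6 related lists (points), with list medians in red and the median of all 14555 tested genes as a dashed line. List medians lie between -0.13 and 0.11, and the 3 points furthest right in the AP-1 and IRF list are *Batf3*, *Spi1* and *Spib*.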

How the data were processed

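Smart-seq2 libraries of sorted splenic Tfh cells from 3 CTL and 3 *Prdm1*-CKO mice were sequenced as paired reads of 25 bp. The authors aligned reads to GRCm38 with GENCODE mouse version 9 and counted them with featureCounts (v1.4.6). The submitters' processing notes name STAR 2.4.2a and DESeq2. The deposited values are raw counts per gene, without normalization. Strand and multiply aligned reads are not given in the sources used here.

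Identifiers were matched without version to GENCODE M21 (53274 of 53379). Counts were tested with edgeR 4.0.16 (TMM, filterByExpr, quasi-likelihood F test, no covariate) over 14555 genes in R 4.3.3, with Benjamini-Hochberg adjustment, and tests were two-sided. DESeq2 1.42.0 was an alternative. Single values were tested by exact permutation in scipy 1.17.1, where 3 mice against 3 cannot go below p = 0.1. Log2 CPM used a prior count of 2 and marker means a pseudocount of 0.5 CPM. On simulated data with 200 genes changed 4-fold, edgeR recovered 80.5% with 8 false calls and DESeq2 93.5% with 58, over 14555 genes. Replicates were taken as separate mice. A count of 3 corresponds to 0.177 to 0.420 CPM per library, for counting error only. The 10 factors and all lists were chosen with earlier results of these data known. Named genes were the factors, *Prdm1*, and in each list those at an unadjusted p under 0.05 or otherwise the 3 most abundant, and the 5 genes most like *Bcl6* and *Tcf7*. *Il21*, *Foxp3*, *Gng4*, *Tox3*, *Batf3*, *Spib* and the single cell type markers were named after their values were seen.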

Additional observations from a re-analysis of the deposited data

How the results depend on the processing

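Over the alternatives, 0 of the 10 factors reached an adjusted p under 0.05. Over all genes DESeq2 called 7 higher and 2 lower, and edgeR without a filter 1 higher, against 0 and 0. *Tox2* turned from -0.02 to 0.010 without a filter, and *Irf4* from 0.0018 to -0.0021 with DESeq2's size factors and -0.0044 without the gene with the most counts. With the replicate number as a block, *Tox2* was at 0.12 and *Pou2af1* at an unadjusted p of 0.0652 against 0.0467 (edgeR), and no adjusted call changed. The numbers mark different mice, with residual correlations of 0.158, 0.0282 and 0.0160 for same-numbered mice. With each mouse left out, log2 fold changes ran from -0.20 to 0.26 for *Bcl6*, -0.39 to 0.43 for *Tox2*, -0.0067 to 0.17 for *Batf*, -0.13 to 0.13 for *Irf4*, -0.37 to 0.017 for *Maf* and -0.46 to 0.0042 for *Bach2*, and list medians from -0.17 to 0.15 for the surface and cytokine genes, -0.09 to 0.64 for the AP-1 and IRF partners and -0.07 to 0.28 for the paralogs. The differences in log2 ratio ran from -0.30 to 0.22 for *Bcl6* to *Prdm1*, -0.14 to 0.016 for *Tcf7* to *Lef1* and -0.58 to 0.043 for *Tox* to *Tox2*. With the longest transcript as length, CTL levels were 24.0 CPM per kb for *Bcl6*, 65.8 for *Lef1*, 54.4 for *Tox*, 168 for *Batf* and 16.3 for *Maf*, because that length is shorter than all exons together. Without CTL replicate 2 and *Prdm1*-CKO replicate 1, r with the B cell markers was -0.96 for *Bcl6* and 0.86 for *Bach2*. Except for the length, the causes were not tested.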

Other observations

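Among 5948 genes with a mean log2 CPM of at least 5, the 5 whose level ran most like that of *Bcl6* over the 6 mice were *Phf20* (Pearson's r = 0.991), *Vti1b* (0.990), *Srp68* (0.986), *Itpa* (0.986) and *Polr2e* (0.984). Those most like *Tcf7* were *Pan3* (0.997), *Klf3* (0.992), *Cnot6l* (0.991), *Ubn1* (0.991) and *Med13* (0.990). Without CTL replicate 2, r lay between 0.956 and 0.981 for the first set and between 0.957 and 0.987 for the second. These values are a description over 6 libraries that share depth and group between genes, and the highest of many genes are high by selection. None of the other 9 factors was among the 5 genes most like *Bcl6* or the 5 most like *Tcf7*. With 5 places among 5948 genes, this cannot show whether the factors vary together.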
